A study of Mus musculus with 16 samples.

Results

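The strongest binding of the histone demethylase Kdm5C in the adult mouse hippocampus is described here, with the trimethylation of histone H3 at lysine 4 (H3K4me3) at the same places in animals with and without the enzyme. The authors' Kdm5C file lists 2321 regions with a value from a wild-type (WT) and a knockout (KO) library. The regions kept were the 376 (16.2%) chosen by their WT Kdm5C value, which had to be at least 2500. The values step in units of 50, so this corresponds to about 50 reads of 50 bases. Of the 376, 375 overlapped a region of the H3K4me3 files by at least 1 bp, and 10 of them overlapped 2 such regions, which gave 385 H3K4me3 regions out of 35996. All 385 passed the filter on low counts, beside 35955 H3K4me3 regions in all. The remaining H3K4me3 regions comprise 1929 that overlapped only a weaker Kdm5C region and 33682 that overlapped none.

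The tissue was whole hippocampus of adult males aged 2 to 4 months, and each library was made from a pool of 2 mice. Chromatin immunoprecipitation (ChIP) with sequencing of single ends gave 12 H3K4me3 libraries in 6 groups of 2. WT and Kdm5c KO mice of a mixed C57/129 F1 background were taken either from standard conditions or after 1 h of novelty, in which each animal explored a box with tubing and toys. A second mutant, named ifKO, and its controls (ifWT) had a pure C57BL/6J background and were in the basal state. The labels do not say how the ifKO allele was made or in which cells it acts. Kdm5C itself and monomethylated lysine 4 (H3K4me1) were measured in 1 WT and 1 KO library each, from mice labelled as pure C57BL/6J, so the strain that defined the regions is not that of the WT and KO mice in which H3K4me3 was measured. Control animals were littermates. The samples of a group are pools of different mice, and the spread between them covers 2 pools.

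H3K4me3 marks the start sites of active genes and is laid down by the methyltransferases of the COMPASS family. Kdm5C is an X-linked demethylase that removes methyl groups from trimethylated and dimethylated lysine 4 and can leave the monomethylated form. Loss of KDM5C function in humans causes an X-linked intellectual disability, and mice without the gene are used as its model. The enzyme has been found both at promoters with strong H3K4me3 and at weaker sites away from them, in complexes with sequence-specific repressors such as E2F6.

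Library totals in the H3K4me3 regions ran from 18181192 to 30435735 counts, of which the 385 regions held 2.90% to 3.14%. A library held between 121 and 7744 counts at a strongly bound region (median 1740), and the limit that a count of 0 allows, 3 counts, is 0.0953 to 0.168 CPM, the counts scaled to a library's total and its TMM factor. Replicates differed by more than counting noise, with a chi-square per degree of freedom of 1.58 to 3.23 over the 385 regions. The 16 regions of pyramidal and granule neuron markers, 1 of them below 1 CPM, had a summed H3K4me3 level (CPM per kb) of 508 to 525 in WT and 479 to 500 in KO in standard conditions. After novelty the sums were 474 to 517 and 474 to 492, and in the pure C57BL/6J mice 450 to 489 in ifWT and 495 to 522 in ifKO, so that they were lower in the mutant in one case and higher in the other. Sums over 11 interneuron markers were lower in KO in standard conditions (64.7 to 69.1 in WT, 61.6 to 62.6 in KO) and after novelty (68.9 to 73.4 and 61.1 to 65.3), and overlapped between ifWT and ifKO. Oligodendrocyte markers were at 154 to 157 in ifWT and 139 to 144 in ifKO and overlapped between WT and KO in standard conditions. Over the 5 markers of choroid plexus and ependyma that had a region, the sum was 46.2 to 49.7 in the 6 control libraries and 50.6 to 57.4 in the 6 mutant libraries. Ttr, Folr1, Otx2 and Aqp1 of that list had no region at a gene end. Over 14 endothelial and mural markers, the sum was 186 to 192 in WT and 165 to 183 in KO in standard conditions, 180 to 182 and 159 to 175 after novelty, and 162 to 168 in both pure C57BL/6J groups. Astrocyte sums were 229 to 235 in WT and 237 to 239 in KO in standard conditions. They overlapped after novelty and between ifWT and ifKO. Striatum, thalamus and hindbrain sums were 90.8 to 95.06 in WT and 95.15 to 106 in KO in standard conditions, and overlapped after novelty. In ifWT they were 109 to 111, and in ifKO 102 to 106. Microglia sums overlapped between WT and KO in both conditions, and were 65.77 to 68.3 in ifWT and 63.0 to 65.68 in ifKO. None of the 385 regions lay at the end of a marker gene of any of the 8 marker lists. The part of cell composition in the results below was not tested, and in tissue of mixed cells a smaller share of cells that carry a mark cannot be told apart from a lower level per cell.

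Sequences are shown first for the start sites that lie inside strongly bound Kdm5C regions, because they show what the bound promoters look like. The promoter table used here is from RefSeq (GRCm38.p6, the same assembly as the mm10 coordinates of the files) and gives 250 bases before to 50 bases after a start site. A start site of this table lay inside 236 of 367 strongly bound Kdm5C regions on the chromosomes it covers (64.3%), against 704 of 1886 weaker ones (37.3%). The strongly bound regions were also wider, with medians of 705 and 307 bp, and the part of width in this gap was not tested. Within 500 bp, a start site was found for 297 of 367 (80.9%) and 1402 of 1886 (74.3%). The stretches below are the 250 bases before the start site, 5′ to 3′ on the strand of the gene, for 3 strongly bound regions. They are the 2 with the highest Kdm5C values that hold an E-box and the highest without. The choice was made among stretches that no annotated gene overlaps, the gene itself included. Promoters such as that of Mga, whose own gene model covers the stretch, were therefore passed over. Capitals mark matches, on either strand, to the motifs named after each.

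Ptpdc1 (chr13:48625673-48625922, minus strand): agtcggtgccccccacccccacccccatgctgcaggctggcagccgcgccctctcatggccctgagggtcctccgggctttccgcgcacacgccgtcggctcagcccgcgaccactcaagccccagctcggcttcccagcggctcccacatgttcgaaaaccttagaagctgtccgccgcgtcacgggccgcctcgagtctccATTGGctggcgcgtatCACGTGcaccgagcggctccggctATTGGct
Map10 (chr8:125669568-125669817, plus strand): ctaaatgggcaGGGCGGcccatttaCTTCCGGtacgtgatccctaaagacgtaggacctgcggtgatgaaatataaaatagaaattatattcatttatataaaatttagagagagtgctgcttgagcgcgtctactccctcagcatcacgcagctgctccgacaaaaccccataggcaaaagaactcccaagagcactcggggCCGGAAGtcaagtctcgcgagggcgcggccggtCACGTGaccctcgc
1600020E01Rik (chr6:86527080-86527329, plus strand): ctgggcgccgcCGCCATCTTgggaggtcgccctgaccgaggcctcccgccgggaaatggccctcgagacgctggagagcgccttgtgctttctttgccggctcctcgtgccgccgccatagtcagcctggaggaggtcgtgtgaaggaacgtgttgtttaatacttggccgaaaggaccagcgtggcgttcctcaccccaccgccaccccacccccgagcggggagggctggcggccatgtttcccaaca

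In the Ptpdc1 stretch the capitals mark 2 NF-Y motifs and, between them, the E-box CACGTG, 31 bases before the start site. Ptpdc1 encodes a protein tyrosine phosphatase domain protein, and its Kdm5C region had a WT value of 7071. In the Map10 stretch they mark, in order, an Sp/Klf motif, 2 ETS motifs and an E-box 14 bases before the start site. Map10 encodes a microtubule-associated protein, and its Kdm5C value was 5671. The 1600020E01Rik stretch, of a long noncoding RNA gene with a Kdm5C value of 6350, holds a YY1 motif only.

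E-boxes from further strongly bound promoters are shown with 10 bases on each side, to let the flanks be compared. They are the 5 with the highest Kdm5C values among the promoters that hold the motif and are not printed above, whether or not another gene overlaps them.

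Pced1a (chr2:130424292-130424317, minus strand): ccttcggggtCACGTGacgaggccgc
4632404H12Rik (chr3:89773477-89773502, minus strand): cctccggcctCACGTGacctctgagc
Trpm7 (chr2:126876271-126876296, minus strand): gcgcgcccttCACGTGacacgccctc
Clns1a (chr7:97696533-97696558, plus strand): gaaccgatgcCACGTGacaaaagcca
Gm19417 (chr4:97869038-97869063, minus strand): cgtggcacgtCACGTGgcttggcacg

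The same is shown for the E2F motif GCGGGAA, in capitals, at the 3 most strongly bound promoters that hold it.

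Gm10190 (chr17:80373583-80373609, minus strand): ggcggcgtgcGCGGGAActccttgagc
1700028E10Rik (chr5:151368645-151368671, plus strand): ccgcccccgcGCGGGAAcacgctagaa
Zfp280d (chr9:72274795-72274821, plus strand): tcccgcgttgGCGGGAAgactgggagc

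The E-box CACGTG was found in 49 of 236 promoters (20.8%), against 13.8% of the promoters in weaker Kdm5C regions, 9.56% of those in H3K4me3 regions of like strength with no Kdm5C region, and 7.15% of all 32841 promoters in the table. Here like strength means the same class of mean log2 CPM over the 12 libraries, in classes of 1 log2 unit, weighted by the class sizes of the strongly bound regions. The 49 promoters held 59 matches, of which 36 lay within 100 bases before the start site and 11 after it, and 9 promoters held at least 2. The NRF1 motif GCGCATGCG was in 9.32%, against 4.85%, 3.55% and 1.75% in the same order of comparison sets. The E2F motif GCGGGAA followed with 13.1%, 9.84%, 8.88% and 4.60%. The ETS motif CCGGAAG was as frequent at weaker Kdm5C regions (30.1%) as at the strongly bound ones (28.0%), and less frequent in like-strength regions (17.5%) and in all promoters (8.86%). Shares of the NF-Y motif CCAAT (36.0%, 35.4%, 36.8% and 37.4%) lay close together. The Sp/Klf motif GGGCGG (65.3%, 64.6%, 69.8% and 35.7%) and the CRE TGACGTCA (3.81%, 4.42%, 3.57% and 1.79%) were no more frequent than at like-strength promoters by over 1 percentage point. The YY1 motif AAGATGGCG was in 4.66%, 4.71%, 3.23% and 1.40%. Both strands were searched, 1 promoter was used per region, and an E-box can overlap a CRE or ETS match only in part. These are exact letter matches described as shares, with no test. The observed over expected CpG ratio had a median of 0.881 in the strongly bound promoters, 0.859 in the weaker, 0.802 in those of like strength and 0.384 in the whole table.

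The Kdm5C values themselves chose the regions and are given as a description. The file's values behave like counts of bases covered by reads inside a region and are not scaled to the depth of the libraries. The median of the 376 regions was 3228 in WT and 649.5 in KO, and the median ratio of KO to WT was 0.178. Among the 1945 weaker regions the medians were 1185 and 247, with a median ratio of 0.207. Per base of region, the WT medians lay closer together, at 4.83 in the strongly bound and 3.84 in the weaker regions. No strongly bound region had a KO value as high as its WT value, and 10 kept a ratio of at least 0.5. The highest ratio, 0.899, was at the pseudogene Pisd-ps1 (chr11:3126934-3127628), with 2757 in WT and 2479 in KO. No label says how reads of near-identical copies were placed. This is also the strongly bound region without an H3K4me3 region. Among the other 9 were Yy1, which encodes a zinc finger transcription factor (3655 and 2517), and Arntl, which encodes the clock factor BMAL1 (2841 and 1466). At the other end, Tmem179 had 2883 in WT and 8 in KO.

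**Figure D1:**
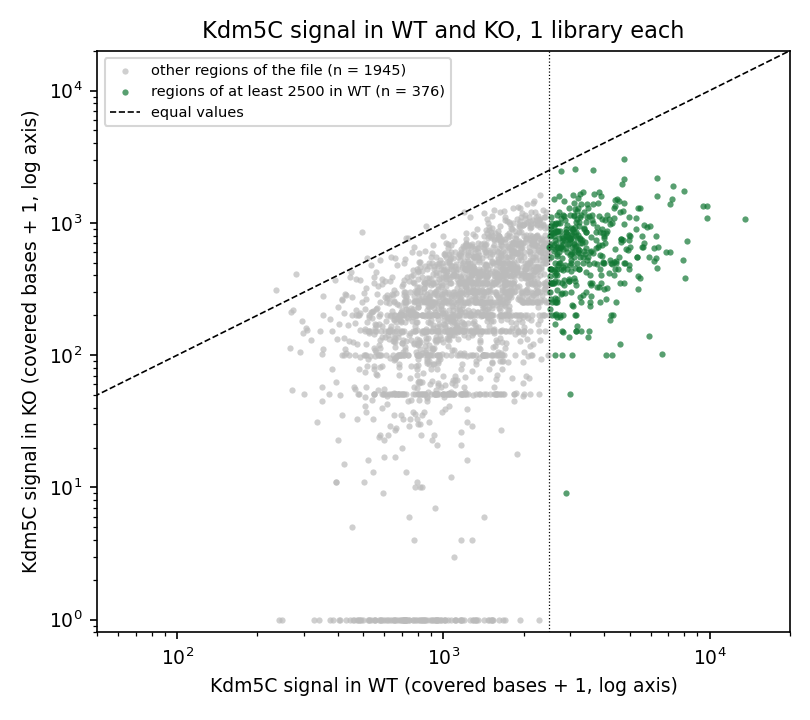
Kdm5C value in WT (x axis) and KO (y axis) for each region of the file, as covered bases plus 1 on log axes, with 376 strongly bound regions in green and 1945 weaker regions in grey. The dashed line marks equal values and the dotted line the value of 2500; the green points lie below the dashed line, at a median KO value of 649.5.

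The strongest values were at Mga, which encodes a MAX-binding protein that anchors a repressive Polycomb complex on DNA. A region over the 5′ end of its gene model (chr2:119872474-119873650) had 13548 in WT and 1068 in KO. A second region inside the gene (chr2:119896972-119897880), around the start site of the promoter table, had 9783 and 1340. Next came Klhl35, of the kelch-like family (9763 and 1086), the shared end of Capn10, a calpain protease, and 9430060I03Rik (9420 and 1338), and Gm10190 (8194 and 725). The shared promoter of Vps16, a subunit of vesicle tethering complexes, and Pced1a had 8055 and 380. Ptma, which encodes the acidic nuclear protein prothymosin alpha, had 8037 and 1748. Rnf227 (7963 and 526), 1700012D14Rik (7257 and 1884) and 1700028E10Rik (7198 and 1500) complete the 10 highest. The threshold falls in a dense part of the range. Just inside it were 1700026J14Rik/Atp6v0e2 (2514), Zfp687/4930481B07Rik (2506) and n-TNgtt14/2310047D07Rik (2501), and just outside were Mirlet7a-1 (2499), Ankrd26 (2495) and Urgcp/Ube2d-ps (2489).

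Strongly bound regions were wider than the weaker ones, with medians of 705 and 307 bp, and 339 of 376 lay wholly inside an H3K4me3 region. Their H3K4me3 regions had a median width of 1759 bp, against 1019 bp for all H3K4me3 regions. Of the 376, 89.4% lay within 2 kb of a gene end, against 91.3% of the weaker regions, and 42.3% lay at the ends of at least 2 genes, against 36.8%. Ends of small RNA genes (tRNA, snoRNA, snRNA and the like) were at 5.85% and 3.44%, and ends of long noncoding RNA genes at 20.7% and 15.5%. None of the 376 lay on the X chromosome, which holds 11 of the file's regions.

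H3K4me1 was not used by the rule, but with 1 library per genotype it has no replicate check. Its median in the 376 regions was 450 covered bases in WT and 250 in KO, with a median ratio of 0.552, and in the weaker regions it was 175 and 100, with a ratio of 0.571. The 2 libraries are not scaled to each other, so a lower value in KO over all regions cannot be told apart from a shallower KO library. Within the strongly bound set, H3K4me1 was lower in KO at 68 of the 74 regions whose H3K4me3 was called higher in the KO mice (below), with a median ratio of 0.443. It was lower at 251 of the other 302, with a ratio of 0.575.

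In standard conditions, H3K4me3 was higher in KO than in WT at 75 of the 385 regions (19.5%) and lower at 6 (1.56%). Over all regions tested, 9.74% were called higher and 3.67% lower. Calls are those of edgeR's quasi-likelihood F test at a Benjamini-Hochberg adjusted p under 0.05, fitted on all regions and all 12 libraries. At the same H3K4me3 strength, 4.04% of the other regions were called higher and 10.4% lower. The rises were mostly below 1.5-fold, which 11 of the 75 reached. Without WT library 1 the calls were 46 higher and 2 lower, and without WT library 2 they were 49 and 1; the direction of the split was the same.

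Ptma rose most. The H3K4me3 region 1281 bp upstream of its start site (chr1:86524809-86525276) had 6.51 and 5.41 CPM in the WT libraries and 15.3 and 15.0 CPM in the KO libraries. Under novelty the values were 6.67 and 6.40 in WT and 15.6 and 16.6 in KO, and in the pure C57BL/6J mice 7.69 and 7.99 in ifWT and 15.9 and 13.4 in ifKO. Each mutant library was above each control library. The log2 change in standard conditions was 1.34 ± 0.13 (SE, edgeR adjusted p = 5.14e-09). The adjoining piece of the same Kdm5C region, nearer the start site (chr1:86525454-86526202), went from 23.7 ± 0.102 to 42.2 ± 0.779 CPM (mean ± SD, n = 2), a log2 change of 0.83 ± 0.07.

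Kcnk12, which encodes a potassium channel subunit with tandem pore domains, carried its bound region at the 3′ end of the gene, 50908 bp from the start site of the promoter table (chr17:87745494-87747086). The WT libraries had 21.5 and 18.9 CPM and the KO libraries 44.6 and 46.8 CPM. With novelty the values were 23.2 and 20.4 against 41.2 and 38.3, and in the ifKO experiment 21.7 and 22.5 against 43.5 and 40.4. The groups do not overlap in any of the 3 experiments, and the log2 change in standard conditions was 1.17 ± 0.08 (SE, edgeR adjusted p = 3.64e-12).

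Klhl35 showed a like rise inside the gene, 1489 bp from its start site (chr7:99467493-99469421), with 31.8 and 27.4 CPM in WT and 62.0 and 60.2 CPM in KO, a log2 change of 1.05 ± 0.07. Rheb encodes the small GTPase that activates the mTOR kinase complex. Its bound region lay 641 bp upstream of the start site (chr5:24843002-24843520) and had 8.62 and 7.82 CPM in WT and 14.3 and 15.6 CPM in KO, a log2 change of 0.87 ± 0.12. At Sdcbp2, a PDZ protein that binds syndecans, a region 2661 bp from the start site (chr2:151575284-151576839) had 26.1 and 24.3 CPM in WT and 46.4 and 44.8 CPM in KO, a log2 change of 0.86 ± 0.09. These members lay away from the start sites that the promoter table gives for the genes.

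**Figure D2:**
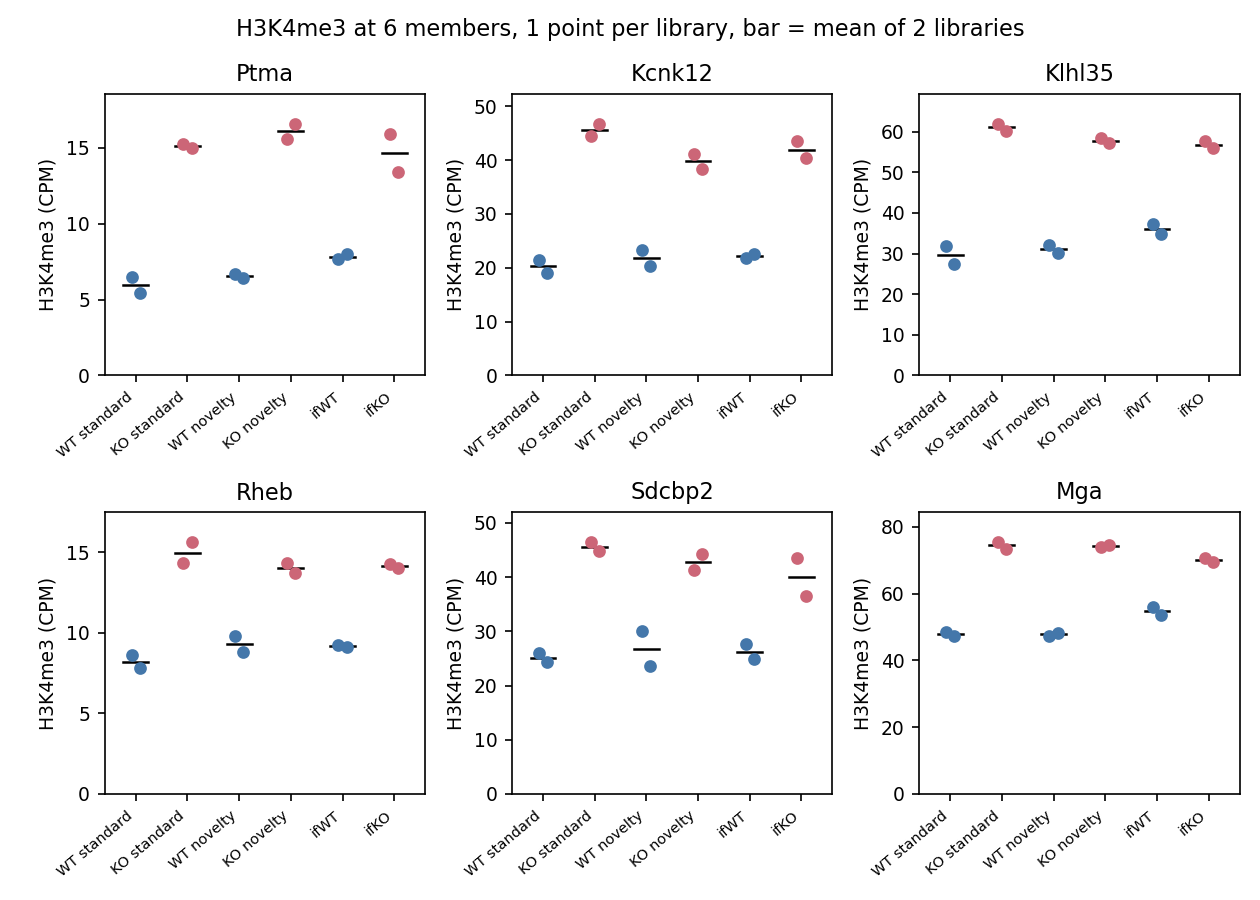
H3K4me3 level (CPM, from 0) in each of the 12 libraries at Ptma (the piece at 86524809), Kcnk12, Klhl35, Rheb, Sdcbp2 and Mga, with controls in blue, mutants in red and a bar at each group's mean of 2. At Kcnk12 the control libraries sit between 18.9 and 23.2 CPM and the mutant libraries between 38.3 and 46.8 CPM.

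Mga itself rose at the most strongly bound region of the file (chr2:119872077-119873915), from 48.6 and 47.2 CPM in WT to 75.4 and 73.5 CPM in KO, a log2 change of 0.64 ± 0.06. The other regions with the largest rises were the predicted gene Gm10190 (0.75 ± 0.07), the 3′ end of Hhipl1, a relative of the hedgehog-interacting protein (0.75 ± 0.07), and Ptbp1/E130317F20Rik (0.65 ± 0.08). Ptbp1 encodes a splicing repressor that is turned down as neurons mature. Gpr62/Pcbp4, an orphan receptor and a poly(C)-binding protein, followed with 0.60 ± 0.06, and Snx20, a sorting nexin, with 0.57 ± 0.08. None of these 12 rises lost its call in any alternative analysis.

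The 6 falls were small. At Arntl the WT libraries had 101 and 98.9 CPM and the KO libraries 83.1 and 88.9 CPM, a log2 change of -0.22 ± 0.06 (SE, edgeR adjusted p = 0.00797). Dcun1d5 (-0.21), a neddylation factor, Prpf39 (-0.20), a splicing factor, Usp36 (-0.19), a nucleolar deubiquitinase, Vps53/Tlcd3a (-0.17) and 1110059E24Rik/Abhd17b (-0.16) made up the rest. All 6 were at regions with more than 60 CPM, and each lost its call in at least 1 alternative, among them offsets fitted to region strength.

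The size of the H3K4me3 change varied with the strength of the H3K4me3 region, so the strongly bound regions were set beside others of like strength. Their median log2 change in standard conditions was 0.01, against -0.07 for the others, a difference of 0.08. The median log2 change over all regions was 0.01. A combined spread of the KO and WT libraries was 0.02. It is the root of the summed squares of the group SDs of the library values given below (0.0241 in KO, 0.000251 in WT, n = 2 each). In the class of mean log2 CPM from 4 to 5, 15 of 25 strongly bound regions were called higher (60.0%), against 15.3% of the other regions. From 5 to 6 it was 38 of 111 (34.2%) against 5.95%, and from 6 to 7 it was 19 of 209 (9.09%) against 1.94%. None of the 35 regions from 7 to 8 was called higher, and 3 of 625 others were. Regions with only a weaker Kdm5C region took a middle place, with 39.3%, 11.8% and 2.42% called higher in the classes from 4 to 7. Over the 385 regions the change and the strength had a Spearman rho of -0.60, as a description of regions that share the same 4 libraries.

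**Figure D3:**
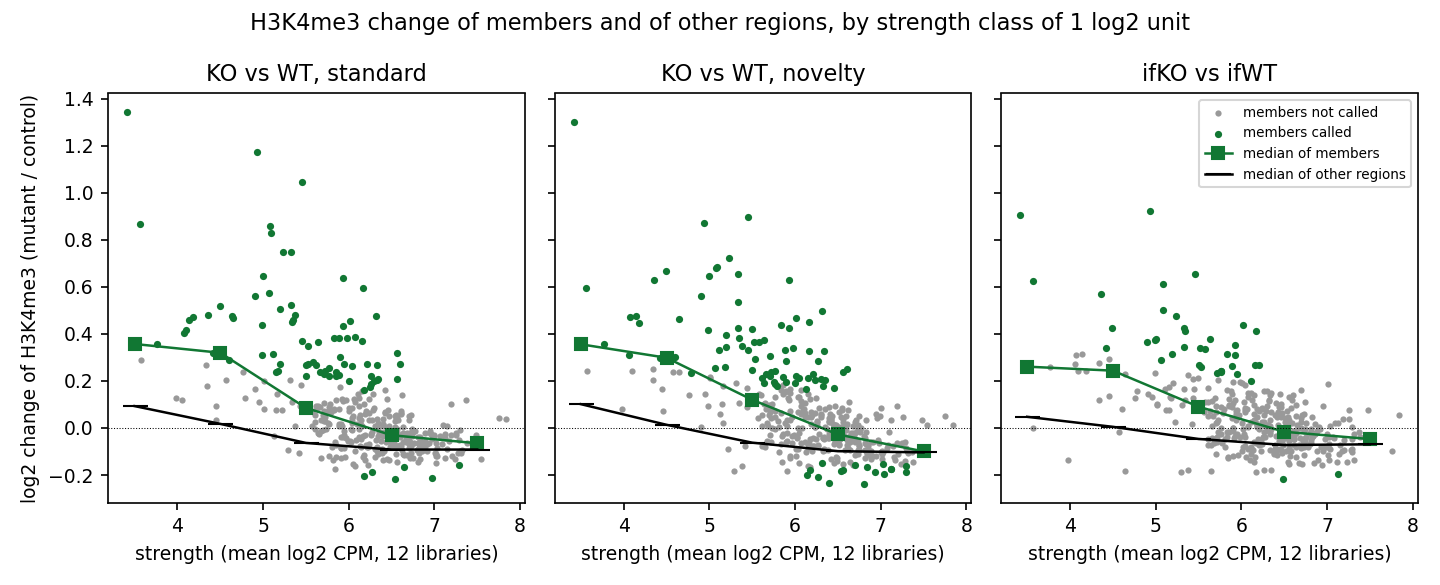
Log2 change in H3K4me3 (y axis) against H3K4me3 strength (x axis, mean log2 CPM over the 12 libraries) for the 385 strongly bound regions in 3 panels, with called regions marked and class medians of the strongly bound (green squares) and the other regions (black line). In each panel the green squares lie above the black line in the classes from 3 to 7, and the gap is smaller in the stronger classes.

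The share called higher was larger where the Kdm5C value, a sum over the width of the region, had been larger. It was 16 of 135 regions (11.9%) at Kdm5C values from 2500 to 3000, 21 of 143 (14.7%) up to 4000, 16 of 64 (25.0%) up to 5000, and 22 of 43 (51.2%) at 5000 or more. The median log2 changes were -0.02, -0.01, 0.06 and 0.18 in the same order, at median H3K4me3 strengths between 6.11 and 6.30. Across the 385 regions the change had a Spearman rho of 0.28 with the Kdm5C value. By the Kdm5C ratio of KO to WT, 25 of 79 regions (31.6%) with a ratio below 0.1 were called higher, 17.7% from 0.1 to 0.2, 17.2% from 0.2 to 0.3, and 10 of 77 (13.0%) with a ratio of at least 0.3. The median H3K4me3 strength differed along with it, from 5.91 in the lowest to 6.46 in the highest of these classes, and the ratio contains the WT value that chose the regions.

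The share also differed by position. Of the 65 strongly bound regions with no start site of the promoter table within 500 bp, 30 were called higher (46.2%) and 0 lower, against 9.93% higher among other regions with the same property, weighted to the same strength classes. Of the 311 with a start site within 500 bp, 44 were higher (14.1%) and 6 lower, against 2.64% higher among the others weighted in the same way. In ifKO the shares were 32.3% (others 6.32%) away from start sites and 5.14% (others 1.38%) near them. The regions away from start sites had a median strength of 5.80, against 6.30 for those near one. Inside genes, 10 of 29 were called higher (34.5%, others 6.36%), and after novelty 6 of 29 (20.7%, others 9.25%). Between genes the count was 6 of 7 in standard conditions (others 18.2%) and after novelty (others 15.1%), and 1 of 7 in ifKO (others 18.2%). In standard conditions the shares at the ends of small RNA genes (5 of 25) and of long noncoding RNA genes (16 of 81, 19.8%) were close to that of all strongly bound regions (19.5%). After novelty they were 8 of 25 (32.0%) and 17 of 81 (21.0%), beside 19.5%. In ifKO they were 3 of 25 (12.0%) and 8 of 81 (9.88%), beside 9.61%. No share of other H3K4me3 regions at such gene ends is given, so the part of the gene type in these shares was not tested.

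In standard conditions 9.74% of all regions tested were called higher in KO. Of the H3K4me3 regions at the 10 highest Kdm5C values, 11 in all, 9 were called higher there. Beside those already given they were the second Mga region (0.37 ± 0.07), Rnf227 (0.44 ± 0.06), 1700012D14Rik (0.20 ± 0.06, edgeR adjusted p = 0.0163) and 1700028E10Rik (0.19 ± 0.06, edgeR adjusted p = 0.0414). The last of these lost its call with DESeq2, limma-voom or RLE factors, and it and 1700012D14Rik lost it without WT library 1, WT library 2 or KO library 1. The exceptions were Capn10/9430060I03Rik, with 91.2 and 94.9 CPM in WT and 92.6 and 89.6 CPM in KO (-0.03 ± 0.06), and Vps16/Pced1a, with 91.6 and 94.4 CPM in WT and 103 and 101 CPM in KO (0.14 ± 0.05, edgeR adjusted p = 0.0863). Both exceptions are promoters with strong H3K4me3. After novelty the same regions were called higher. In ifKO, 1700012D14Rik (edgeR adjusted p = 0.115) and 1700028E10Rik (edgeR adjusted p = 0.168) were not called, and neither were the exceptions. The sign at Capn10/9430060I03Rik was positive under scaling by library totals and under offsets fitted to region strength.

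Called higher in standard conditions, the promoters printed above included Map10 (0.48 ± 0.08), Gm19417 (0.45 ± 0.07), Gm10190, Zfp280d (0.20 ± 0.06) and 1700028E10Rik. Zfp280d lost its call without WT library 1, KO library 1 or KO library 2. Vps16/Pced1a, also printed, was not called (0.14 ± 0.05). For Ptpdc1, 1600020E01Rik, 4632404H12Rik, Trpm7 and Clns1a, printed as well, the H3K4me3 change is not reported here, so no share of the printed promoters follows. Over all regions tested, 9.74% were called higher. The printed promoters were chosen for their sequence and Kdm5C value. Among strongly bound H3K4me3 regions with a promoter inside, 5 of 53 with an E-box (9.43%) and 31 of 240 without (12.9%) were called higher. With the E2F motif it was 8 of 34 (23.5%), and without it 28 of 259 (10.8%), while 2 and 4 were called lower. After novelty 7 (20.6%) with and 29 (11.2%) without the E2F motif were higher, and in ifKO 2 (5.88%) and 9 (3.47%). Median strength was 6.17 with and 6.35 without the E2F motif. The median log2 changes in standard conditions were 0.02 and -0.02 with and without the E-box, and -0.01 and -0.02 with and without the E2F motif. These shares were not tested.

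After novelty, KO and WT differed at a like number of strongly bound regions, with 75 higher (19.5%) and 17 lower (4.42%). Over all regions, 11.1% were called higher and 5.94% lower, and among other regions of like strength 4.66% and 17.4%. The median difference to regions of like strength was 0.09, with a combined spread of the KO and WT libraries, taken as before, of 0.01. The upstream Ptma region again led the rises, followed by Klhl35 (0.90 ± 0.07), Kcnk12 (0.87 ± 0.08), Hhipl1 (0.72 ± 0.07), the second Ptma piece (0.68 ± 0.07) and Sdcbp2 (0.68 ± 0.09). Among the largest falls were those at Wrnip1, an ATPase that interacts with the Werner helicase (-0.24 ± 0.05), Ptbp3 (-0.24 ± 0.06), Usp36 (-0.21 ± 0.06), the flippase gene Atp11b (-0.20 ± 0.06) and Yy1 (-0.20 ± 0.05). The counts were 52 higher and 17 lower without WT novelty library 1, 44 and 2 without WT novelty library 2, 46 and 3 without KO novelty library 1, and 49 and 3 without KO novelty library 2. The share of higher calls depended on scaling, with 67 higher and 31 lower under RLE factors, 97 and 6 under library totals and 108 and 2 under offsets fitted to strength.

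With both conditions averaged, 103 regions were higher and 49 lower, where 18.1% of all regions were called higher and 13.9% lower. This split was 94 and 69 under RLE factors and 162 and 3 under offsets fitted to strength. Of like-strength regions, 7.32% were called higher and 38.5% lower.

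Novelty as such left no call at the strongly bound regions. In WT mice 0 of 385 were called higher or lower, beside 0.00556% higher and 0% lower over all regions, and 10 had an unadjusted p under 0.05. In KO mice the counts were 0 and 0, beside 0% over all regions in both directions, with 17 at an unadjusted p under 0.05. The genotype by novelty interaction called 0 and 0, beside 0% and 0%, with 10 at an unadjusted p under 0.05. DESeq2 and limma-voom also called 0 in each of these 3 comparisons. At Kcnk12, for example, KO libraries held 44.6 and 46.8 CPM in standard conditions and 41.2 and 38.3 CPM after novelty, and the difference did not pass the test. With 2 libraries a group, a call that is missing does not show that novelty left the mark as it was.

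In the second mutant, 37 of the 385 regions were higher in ifKO than in ifWT (9.61%) and 2 were lower (0.519%). Over all regions, 4.41% were called higher and 0.976% lower, and in like-strength regions 2.37% and 2.97%. The median difference to regions of like strength was 0.07, with a combined spread of the ifKO and ifWT libraries, taken as before, of 0.02. The largest rises were those of Kcnk12 at 0.92 ± 0.09, Ptma at 0.90 ± 0.13, Klhl35 at 0.66 ± 0.07, Rheb at 0.63 ± 0.13 and Sdcbp2 at 0.61 ± 0.10. They were followed by a region at the U3 small nucleolar RNA gene Rnu3b1 (with LOC115487798 and Gm23137, chr11:87442412-87443538), with 18.9 and 16.9 CPM in ifWT and 28.0 and 25.0 CPM in ifKO, a log2 change of 0.57 ± 0.10. U3 genes have near-identical copies, so its counts are uncertain. The falls were the nucleoporin gene Pom121 (-0.22 ± 0.07) and the zinc finger gene Zfp800 (-0.19 ± 0.06), and both lost their call in several alternatives. The count was 25 without ifWT library 1 and 22 without ifKO library 1, all higher, and 64 higher and 0 lower under offsets fitted to region strength.

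For each library, a region's log2(CPM + 0.5) was taken minus its mean over the 12 libraries, and the median of the strongly bound regions was set against that of others of like strength. The difference was -0.05 and -0.05 in the WT standard libraries, 0.05 and 0.01 in KO standard, -0.05 and -0.06 in WT novelty, 0.03 and 0.04 in KO novelty, -0.02 and -0.02 in ifWT, and 0.07 and 0.04 in ifKO. The mutant libraries were all above the control libraries, in both backgrounds.

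**Figure D4:**
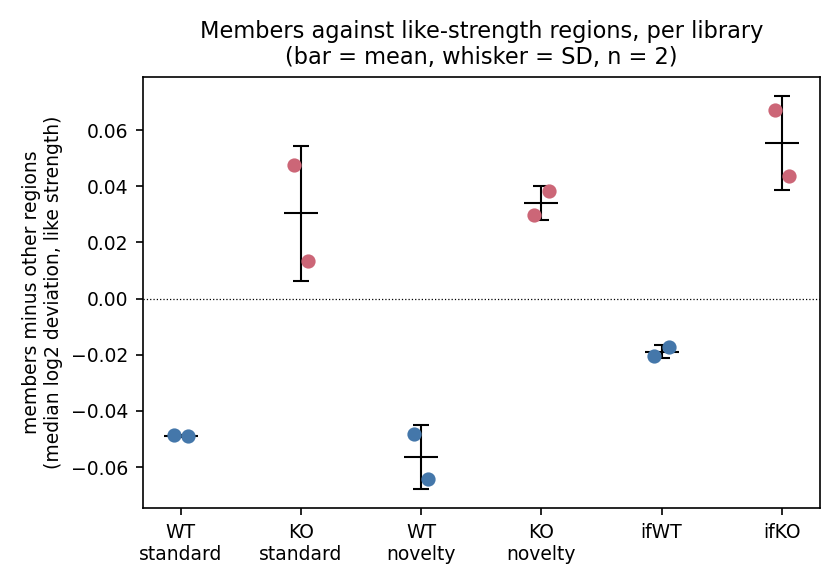
Median log2 deviation from the mean of the 12 libraries, strongly bound regions minus other regions of like strength (y axis), for each of the 12 libraries by group, with controls in blue, mutants in red and the mean ± SD of 2 libraries. The 6 control libraries lie below 0 and the 6 mutant libraries above 0.

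All 6 mutant libraries were above all 6 control libraries at 54 of the 385 regions (14.0%), against 6.04% of all regions tested. They were below at 5, where 2.73% of all regions were. Of the 75 regions called higher in standard conditions, 64 (85.3%) were also called higher after novelty, out of 75 there (85.3%); over all regions tested the shares were 74.7% and 65.7%. With ifKO the overlap was 35, which is 46.7% of the standard calls and 94.6% of the ifKO calls, against 34.9% and 77.1% over all regions. No strongly bound region was called in opposite directions, and the differences between these shares were not tested. The 2 KO comparisons and the ifKO comparison share no control library. Of the 75, 73 had a positive log2 change in ifKO. At 385 regions the changes in KO standard and ifKO had a Pearson r of 0.85, as a description over regions.

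**Figure D5:**
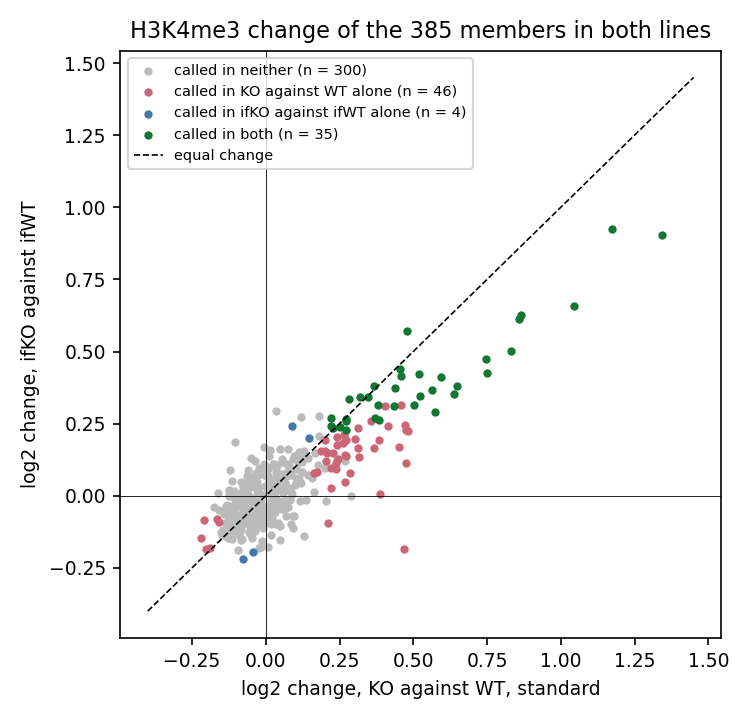
Log2 change in KO against WT in standard conditions (x axis) and in ifKO against ifWT (y axis) for the 385 regions, coloured by call, with 35 called in both, 46 in KO alone, 4 in ifKO alone and 300 in neither. The largest changes in both lie at Ptma, Kcnk12 and Klhl35.

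Called higher in all 3 mutant comparisons were 34 regions (8.83%), against 3.13% of all regions tested. Of these, 21 had no start site of the promoter table within 500 bp and 13 had one, and 11 had a Kdm5C value of at least 5000. Their median Kdm5C value was 4006, against 3228 for all strongly bound regions. The median log2 changes were 0.47 in standard conditions, 0.42 after novelty and 0.36 in ifKO, and 27 of the 34 changed more in KO standard than in ifKO. Beside the members already named, they included both Mga regions, Ubb, a polyubiquitin gene, Stx4a, a syntaxin, and Kank3. They also included regions at the 7SK RNA gene Rn7sk and at the tRNA genes beside Mrpl58, where near-identical copies make the counts uncertain.

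The difference between the KO and ifKO effects was called at 3 of the 385 regions, all larger in KO (0.779%), where 0.651% of all regions were called in that direction and 0.0501% in the other. At 0610040J01Rik/Nwd2 (chr5:63811931-63813426) the libraries had 21.1 and 22.2 CPM in WT, 29.2 and 30.7 in KO, 21.9 and 24.5 in ifWT and 18.5 and 22.4 in ifKO, so that the mark was higher in KO and the ifKO values overlapped their controls. The difference was 0.65 ± 0.14 (SE, edgeR adjusted p = 0.0110). Ccdc85c (0.38 ± 0.09) and a region near Gm36166 (0.36 ± 0.09) were the others. The 3 calls fell to 0 without WT standard library 2 or ifKO library 1. The KO and ifKO mice differ in allele, strain background and cohort, and these cannot be told apart.

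Strongly bound regions lay at the ends of 14 of the 316 genes of the 10 gene lists that had an H3K4me3 region there (4.43%), against 557 of all 21528 such genes (2.59%). The 14 were Mga and Hdac2 of the E2F6 and MGA repressor complex, Tdrkh of 38 germline genes, Hnrnpm, Snrnp70, Snrpa and Ddx17 of RNA processing, Rpl3, Rpl10a, Rpl14, Rpl38, Rplp1 and Rps3 of the cytosolic ribosome, and Pcna of cell cycle and repair. Over all regions tested, 9.74% were called higher in KO standard, 11.1% in KO novelty and 4.41% in ifKO. Of the 14, Mga was called higher in all 3 mutant comparisons, and the other 13 in none. Their log2 changes in standard conditions ran from -0.16 at Snrpa to 0.12 at Rpl10a, and their lowest adjusted p was 0.114, 0.128 and 0.155 in the KO standard, KO novelty and ifKO comparisons. Their Kdm5C values were 2539 to 4763. No region lay at a gene of the H3K4 methylation enzymes, the mitochondrial, activity-induced, synaptic or clustered protocadherin lists. Of the H3K4 enzyme list, 10 regions at gene ends overlapped a weaker Kdm5C region.

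Other demethylase genes were among the strongly bound regions, and they are named after their values were seen. Kdm8 had a Kdm5C value of 6300 in WT and 800 in KO, Kdm3a 3976 and 836, and Kdm4c 3831 and 1704. Their H3K4me3 did not pass the test in standard conditions. Kdm8 had a mean of 71.3 CPM in WT and 77.7 CPM in KO, Kdm3a 68.2 and 68.5, and Kdm4c 109 and 103, with SDs over 2 libraries of at most 7.60. The Kdm8 groups do not overlap, and its adjusted p was 0.138.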

How the data were processed

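H3K4me3, H3K4me1 and Kdm5C were measured by ChIP-seq in mouse hippocampus, in 16 libraries. The H3K4me3 files hold whole-number counts of reads per region, deposited by the authors over one shared set of 36005 regions on mm10, of which 9 repeats were removed. The Kdm5C and H3K4me1 files hold signal that the authors' header also calls raw counts, but the deposited values behave like sums of covered bases and are read as such: 33.8% of the Kdm5C KO values above 0 were whole multiples of 50, against 1.31% for 49. The submitters' processing notes list, without roles, featureCounts and R 3.3, the aligner Bowtie2 in version 2.2.9, the peak caller MACS2 in version 2.1.0, SAMtools in version 1.3.1 and DESeq2 in version 1.10.0.

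Strongly bound regions have a Kdm5C WT value of at least 2500. Counts were fitted with edgeR 4.0.16 in R 4.3.3 (TMM factors, filterByExpr, quasi-likelihood F test) on 12 libraries with a mean per group, and p-values were adjusted by the Benjamini-Hochberg method over 35955 regions. CPM use TMM-scaled totals, and strength is the mean of log2(CPM + 0.5). Tables were handled with Python 3.11.15, pandas 2.3.3 and numpy 2.4.6. The fit was tested on simulated data with 200 changed regions. Gene ends (within 2 kb) and promoter sequences come from RefSeq tables of GRCm38.p6; the promoter table does not cover chromosome 18, and its strongly bound regions are left out of start site and motif shares. Alternatives were RLE factors, library totals, offsets fitted to strength, DESeq2 1.42.0, limma-voom (limma 3.58.1), no filter, only the groups compared, a replicate block, each library left out, thresholds of 2000 and 4000, a 50% overlap, strength classes of 0.5 and strength per kb.

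The regions, gene lists and tests were chosen with earlier results of these data known. Named genes follow a rule: the 10 highest Kdm5C values, 3 regions on each side of the threshold, up to 12 rises and 12 falls in standard conditions and up to 6 in each direction elsewhere among called regions whose groups do not overlap, and regions at listed genes; some regions that the rule names are not reported here. P-values rest on the spread between the 2 libraries within each of the 6 groups, which share one estimate of it in the fit. Each library is a pool of 2 mice.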

Additional observations from a re-analysis of the deposited data

Results flagged for a closer look

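The test of the difference between the KO effect in standard conditions and the ifKO effect singled out 3 strongly bound regions. At 0610040J01Rik/Nwd2 the difference was 0.65 on the log2 scale, with group means of 21.6 CPM in WT and 29.9 in KO, and 23.2 in ifWT and 20.5 in ifKO. At Ccdc85c it was 0.38, with means of 57.8 and 75.6 CPM, and 69.6 and 69.8. At Gm36166 it was 0.36, with means of 78.0 and 108 CPM, and 57.0 and 61.6. Each value is from 2 libraries a group, and the 2 mutants also differ in strain background.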

How the results depend on the processing

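The lowest count at a strongly bound region was 121 reads (Ptma, WT). Each group has 2 libraries, which limits the precision, and a group left with 1 was assumed to vary like the others. Novelty, in WT, in KO or as an interaction, gave 0 calls in edgeR and under each alternative run, with 1 to 22 regions at an unadjusted p under 0.05. The 12 named rises in standard conditions, 6 after novelty and 6 in ifKO kept their calls in each alternative. All 6 named falls in standard conditions, the 6 after novelty, the 2 in ifKO and the 3 regions that differed between KO and ifKO lost theirs in at least 1. The sign at Capn10/9430060I03Rik, not called, turned from -0.03 to 0.0105 under library totals and 0.0467 under fitted offsets.

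Calls in either direction, of 81 in standard conditions, were 38 with a Kdm5C threshold of 4000 and 48 to 66 with a library left out. Of 92 after novelty, they were 36 and 46 to 69. Of 152 for both conditions averaged, they were 249 at a threshold of 2000, 52 at 4000 and 111 to 145. Of 39 in ifKO, they were 64 with fitted offsets, 19 at 4000 and 22 to 48. The 3 calls between KO and ifKO were 5 with library totals, 1 with DESeq2, 1 with limma-voom, 1 with only the groups compared, 0 at a threshold of 4000 and 0 to 3 with a library left out. The median difference to regions of like strength was 0.16 in standard conditions, 0.15 after novelty and 0.14 in ifKO at a threshold of 4000, and 0.0769 after novelty at 2000. A threshold of 4000 keeps fewer regions, of which a larger share was called: 35.5% against 21.0% in standard conditions, 33.6% against 23.9% after novelty and 17.8% against 10.1% in ifKO. The other causes were not tested.

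The share of higher calls moved by over 10 percentage points after novelty, from 81.5% to 68.4% with RLE factors, 67.5% with DESeq2, 71.2% with limma-voom, 94.2% with library totals and 98.2% with fitted offsets. For both conditions averaged it went from 67.8% to 57.7% with RLE factors, 56.2% with DESeq2, 88.2% with library totals and 98.2% with fitted offsets. No scaling moved the median of all regions by over 0.1.

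With the replicate block, the calls were 73 higher and 6 lower in standard conditions, 70 and 16 after novelty, 103 and 42 averaged, 36 and 1 in ifKO and 3 between KO and ifKO. The deviations of libraries with the same number correlated at -0.07 (WT and KO, standard), -0.01 (novelty) and -0.01 (ifWT and ifKO). Between standard and novelty libraries they correlated at 0.22 in WT and 0.14 in KO. With 2 libraries a group, these values cannot decide whether the numbers pair the mutant with the control libraries. The values between standard and novelty libraries were above 0.1, with 2 libraries a group, and the labels tie no number to shared mice; the block also gave 0 calls for novelty.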
